A study of Mus musculus with 14 samples.

Results

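Genes that direct the building of the kidney in the embryo were followed in the adult kidney. These 10 genes are the secreted ligands Wnt4, Wnt7b, Wnt9b and Shh, the transcription factors Pax2, Pax8, Osr2 and Prox1, and the transcriptional co-regulators Cited1 and Id2. The 10 symbols were matched through the GENCODE mouse annotation to the Ensembl identifiers of the count files, and each matched 1 of 56980 genes. The list was chosen by measured values, in that the fold changes of preterm diabetic against term nondiabetic kidneys had already been seen when it was drawn up. For that comparison the values and counts below are a description of the choice, and no p-value is given for a member.

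RNA was sequenced from whole kidneys of 14 female mice of the outbred CD-1 stock at 18 weeks of age, with 1 library per mouse and no engineered allele in any group. Term mice without diabetes (T-ND) and with it (T-D) gave 4 libraries each. Preterm mice without diabetes (PT-ND) and with it (PT-D) gave 3 libraries each. Diabetic mice were given low doses of streptozotocin (STZ), a drug toxic to the insulin-producing beta cells, as young adults. Some preterm diabetic females of the study, and no term diabetic female, had to be given it again. Which of the sequenced mice were given it again is not stated. In PT-D compared to T-D, and where STZ effects are compared between birth groups, preterm birth and repeated STZ cannot be told apart. Preterm pups were delivered by Caesarean section a day early and raised by foster mothers that received acepromazine, a sedative, whereas term pups were born naturally and stayed with their own mothers, so that the word preterm stands for all of these.

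The kidney forms when the ureteric bud, an epithelial tube, branches into a mesenchyme of nephron progenitors. Wnt9b from the bud prompts progenitors to form nephrons, Wnt4 carries them through the change from mesenchyme to epithelium, and Wnt7b and Shh from the older parts of the bud act on the surrounding tissue of the medulla and ureter. Pax2 and Pax8 establish the renal lineage, Cited1 marks the youngest progenitors, and Id2 belongs to the Id proteins, which block E proteins and related helix-loop-helix factors from binding DNA.

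The libraries held 16697246 to 28673176 counts on genes, and their median was 18765582. Kidney markers were abundant in all of them. Umod of the thick ascending limb ranged from 11310 to 51520 normalized counts and Aqp2 of collecting duct principal cells from 3131 to 14450. A normalized count is the count after scaling for library size and composition. Six2, which defines nephron progenitors in the embryo, had a count in 2 of the 14 libraries and averaged 0.557 normalized counts in T-ND and 0 in the other groups. Adrenal markers, which would show attached adrenal tissue, summed to at most 21.6 normalized counts in a library. Adipocyte markers, which would show attached fat, varied widely within every group. They summed to 13.41 to 2424 normalized counts in T-ND, 10.14 to 2445 in T-D, 20.55 to 909.2 in PT-ND and 2.695 to 1954 in PT-D. The part of attached fat in the values below was not tested. The names of 5 libraries, with at least 1 in every group, end in the letter a, whose meaning is not stated.

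All 10 regulators were detected in every library, and the lowest count of reads was 5, for Cited1 and for Shh. Per kilobase of exon, Id2 was the most abundant, with a median of 72.5 CPM (counts scaled to the library total) per kilobase over the 14 libraries. Pax8 followed at 10.7 and Pax2 at 2.77 CPM per kilobase. Neither gap was bridged by any library, since the lowest Id2 value (28.96 CPM per kilobase) was above the highest of Pax8 (15.6), and the lowest of Pax8 (8.01) above the highest of Pax2 (4.31). Wnt7b (2.24), Osr2 (1.20), Wnt4 (1.16), Cited1 (0.999), Wnt9b (0.609), Shh (0.481) and Prox1 (0.350 CPM per kilobase) came next in this order by their medians, and from Pax2 downward the ranges of neighbours overlapped. Pax8 varied least among libraries, with a highest normalized count 1.95 times the lowest. Cited1 varied most, by 38.1 times, followed by Wnt9b at 21.4 times.

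**Figure D1:**
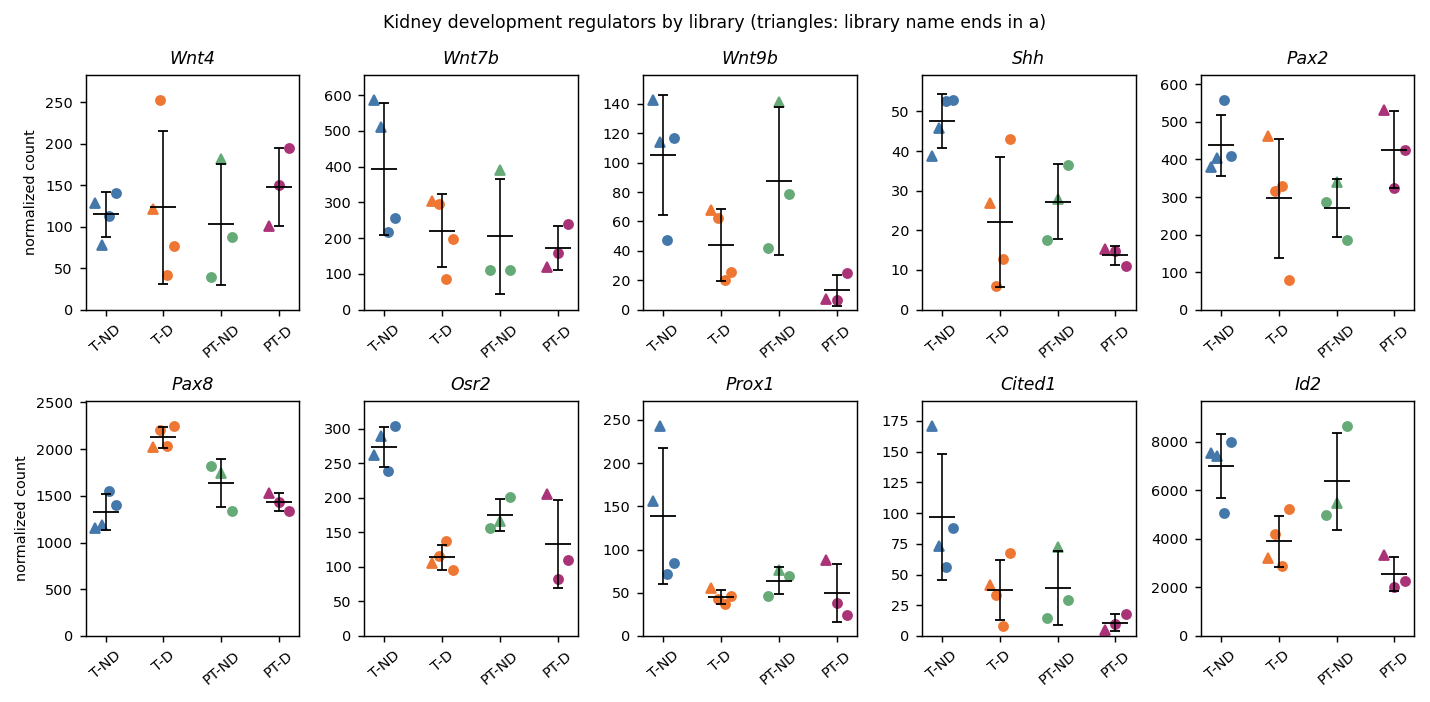
Normalized counts (vertical axis, linear from 0) of the 10 regulators in each of the 14 libraries, by group. Points are libraries in replicate order, triangles mark library names ending in a, and bars give the mean and SD. All 3 PT-D libraries of Wnt9b lie between 6.67 and 25.2, and the 4 T-D libraries of Pax8 lie between 2022 and 2248, above those of every other group.

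In PT-D compared to T-ND, the comparison behind the choice of genes, 8 of the 10 regulators had a negative log2 fold change, and 4 met the definition of a differentially expressed gene (DEG) used here, an adjusted p below 0.05 together with a log2 fold change beyond 1 in either direction. Of all genes tested there, 1.45% were DEGs and 48.1% had a negative log2 fold change. The genes were picked with these fold changes in view, so that nothing is read from the members' counts. The log2 fold changes were −1.19 ± 0.38 (SE) for Wnt7b, −1.05 ± 0.29 for Osr2, 0.36 ± 0.28 for Wnt4, 0.10 ± 0.14 for Pax8 and −0.04 ± 0.20 for Pax2. The other 5 members lay between −3.15 for Cited1 and −1.47 for Id2. The PT-D libraries were all below the T-ND libraries for 5 members (Wnt9b, Shh, Osr2, Cited1 and Id2), which was so for 11.2% of all genes. Every comparison that follows shares the PT-D or the T-ND libraries with this one, so that a negative value in them is not independent of the choice.

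The effect of STZ in term mice was examined by comparing T-D to T-ND. Osr2 was the 1 regulator of 10 that was a DEG by edgeR, and it was lower in T-D, where 0.0135% of all genes tested were DEGs and lower. DESeq2 called Prox1 as well. The median log2 fold change was −0.999 over the 10 members and −0.02 over all genes, and 8 members were negative against 51.6% of all genes. At an unadjusted p under 0.05 there were 7 members, against 11.8% of all genes. The T-ND libraries are those of the comparison behind the choice of genes, so that nothing is read from these shares. Osr2 and Prox1 were lower in every T-D than in every T-ND library, as were 3.76% of all genes, and Pax8 was higher in every one, as were 2.9%.

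The effect of STZ in preterm mice was examined by comparing PT-D to PT-ND. Wnt9b and Id2 were DEGs by edgeR and lower in PT-D, where 1.99% of all genes were DEGs and lower. DESeq2 called Cited1 as well. The median log2 fold change was −0.38 over the members and 0.05 over all genes. The groups did not overlap for Wnt9b, Shh and Id2, all lower in PT-D, as was so for 15.8% of all genes. With both birth groups in an additive fit on the 14 libraries, Id2 was the 1 member that edgeR called for STZ and was lower, against 0.134% of all genes. DESeq2 called 5 members, adding Wnt9b, Shh, Prox1 and Cited1, and edgeR with no filter on low counts called 3 (Id2, Wnt9b and Cited1).

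The effect of preterm birth was examined without STZ (PT-ND compared to T-ND) and with it (PT-D compared to T-D). By the quasi-likelihood test in edgeR, no member was a DEG in either, where 0.0809% and 0.193% of all genes were. DESeq2 called none in the first and Wnt9b in the second. At an unadjusted p under 0.05 there were 5 members in the first, against 10.7% of all genes, and 4 in the second, against 22.3%. Shh, Pax2 and Osr2 were lower in every PT-ND than in every T-ND library, as were 5.54% of all genes, and Pax8 was lower in every PT-D than in every T-D library, as were 10.6%. In the additive fit no member was called for preterm birth by edgeR or DESeq2, against 0.0269% of all genes by edgeR. Cited1 was the 1 member with an unadjusted p under 0.05 there, against 7.61% of all genes, and its log2 fold change was −1.52 ± 0.46 (SE; adjusted p = 0.495).

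Whether the STZ effect differed between preterm and term mice was tested as an interaction. No member was a DEG by edgeR or DESeq2, against 4.45% of all genes by edgeR, and Pax8 alone passed the adjusted p threshold, as did 6.23% of all genes. At an unadjusted p under 0.05 there were 3 members (Pax8, Osr2 and Pax2), against 24.5% of all genes.

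**Figure D2:**
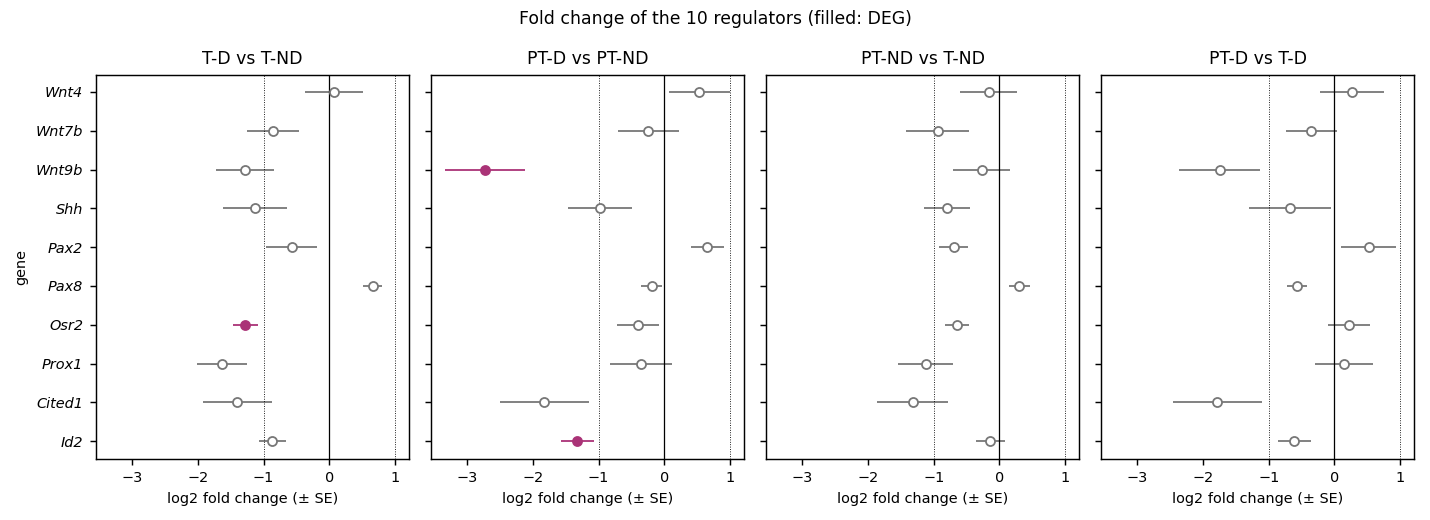
Log2 fold change (horizontal axis) of the 10 regulators in 4 pairs of groups, with the SE as bars and dotted lines at −1 and 1. Filled points are DEGs, which are Osr2 in T-D compared to T-ND (−1.28) and Wnt9b (−2.73) and Id2 (−1.32) in PT-D compared to PT-ND.

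Wnt9b is carried on chromosome 11 (GRCm39, chr11:103618189-103640655, minus strand, 4 merged exon blocks). Its normalized counts were 143, 114, 47.5 and 117 in T-ND replicates 1 to 4 and 68.0, 62.4, 20.3 and 25.4 in T-D replicates 1 to 4. They were 42.1, 142 and 78.4 in PT-ND replicates 1 to 3 and 7.19, 6.67 and 25.2 in PT-D replicates 1 to 3. PT-D lay below all PT-ND and T-ND libraries, and its highest library reached the lower T-D libraries. Wnt9b fell by 2.73 on the log2 scale in PT-D compared to PT-ND (SE 0.61, adjusted p = 0.0178, edgeR). The call was lost without PT-ND replicate 2 (adjusted p = 0.0772) or replicate 3 (0.0533). Among libraries with the suffix a, 1 of each group, the log2 ratio was −4.21, and among the other libraries, 2 of each, it was −1.89. In PT-D compared to T-D the log2 fold change was −1.75 ± 0.62 (SE; adjusted p = 0.133), and in T-D compared to T-ND it was −1.28 ± 0.44 (adjusted p = 0.314). The interaction was −1.47 ± 0.80 (adjusted p = 0.275), so that a different STZ effect in preterm and term mice was not shown.

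Collecting duct principal cells derive from the ureteric bud, the source of Wnt9b. Of the 8 principal cell markers, 7 had a negative log2 fold change in PT-D compared to PT-ND, against 47.5% of all genes, and Fxyd4, a regulator of the sodium pump, was a DEG among them (−1.12 ± 0.33, adjusted p = 0.0487). Their summed normalized counts were 12140 to 20090 in PT-ND and 6159 to 13970 in PT-D, and 13050 to 22110 in T-ND and 11560 to 13900 in T-D. Avpr2, the vasopressin receptor of these cells, was at 0 in 10 of the 14 libraries. In whole kidneys, fewer cells of a type and less RNA per cell cannot be told apart, and the part of these markers in the Wnt9b values was not tested.

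Wnt7b (chr15:85419638-85466674, minus strand) shares 324 exonic bases with AU022754, a noncoding gene on the other strand. Here and in the members below, reads that touch both genes of such a pair are in neither gene's count, and reads beyond the shared bases were assigned without regard to strand. Its normalized counts were 588, 512, 218 and 256 in T-ND, 303, 295, 85.6 and 197 in T-D, 112, 391 and 111 in PT-ND and 120.4, 157 and 241 in PT-D. T-ND replicates 1 and 2 were the highest, and all 4 groups overlapped. Leaving aside PT-D compared to T-ND, the comparison behind the choice, no comparison called it. The log2 fold change nearest to a call in the other pairs of groups was −0.86 ± 0.40 in T-D compared to T-ND (SE; adjusted p = 0.430). The 2 high T-ND libraries, the highest T-D and the highest PT-ND library carry the suffix a, as does the lowest PT-D library.

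Wnt4 (chr4:137004373-137027037, plus strand) overlapped no other annotated gene. In normalized counts, the libraries stood at 129, 78.3, 113 and 141 in T-ND, 122, 253, 42.0 and 77.3 in T-D, 39.04, 182 and 87.5 in PT-ND and 100.6, 150 and 195 in PT-D. The groups overlapped in every pair, and the highest and one of the lowest libraries were both T-D. The largest log2 fold change of a tested pair was 0.54 ± 0.46 in PT-D compared to PT-ND (SE; adjusted p = 0.488).

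Shh (chr5:28661813-28672254, minus strand) shares 642 exonic bases with the noncoding gene 9530036O11Rik. Its normalized counts were 38.6, 45.9, 52.6 and 52.9 in T-ND, 26.8, 6.002, 12.8 and 43.1 in T-D, 17.5, 27.9 and 36.4 in PT-ND and 15.3, 14.8 and 11.03 in PT-D. T-ND was above all PT-ND and PT-D libraries, and T-D replicate 4 reached into its range. Leaving aside PT-D compared to T-ND, the comparison behind the choice, no pair of groups passed by edgeR or DESeq2. DESeq2 called the STZ effect in the additive fit (adjusted p = 0.0434), which edgeR did not (adjusted p = 0.158). By edgeR the log2 fold change was −0.80 ± 0.35 in PT-ND compared to T-ND (SE; adjusted p = 0.462), −1.13 ± 0.49 in T-D compared to T-ND (adjusted p = 0.408) and −0.98 ± 0.49 in PT-D compared to PT-ND (adjusted p = 0.212). The 10 urothelium markers, of the epithelium that lines the renal pelvis, summed to 1027 to 2084 normalized counts in T-ND, 959 to 2003 in T-D, 246 to 1745 in PT-ND and 137 to 855 in PT-D, and none was at 0 in any library. Their part in the Shh values was not tested.

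Osr2 (chr15:35296196-35303673, plus strand, 2 merged exon blocks), an odd-skipped zinc finger factor, overlapped no other gene. The normalized counts of the libraries were 262, 289, 239 and 304 in T-ND and 106, 115, 138 and 95.1 in T-D. They were 156, 167 and 201 in PT-ND and 205, 83.0 and 110.3 in PT-D. T-ND stood above every library of the other 3 groups, and PT-D replicate 1 stood above the other PT-D libraries by a wide margin. Osr2 fell by 1.28 on the log2 scale in T-D compared to T-ND (SE 0.19, adjusted p = 0.0357, edgeR). The size was alike among libraries with the suffix (−1.37, 1 T-D and 2 T-ND) and without it (−1.22, 3 T-D and 2 T-ND). The call itself was close to its threshold. It held in 1 of 8 fits that left out a library, the one without T-ND replicate 3 (adjusted p = 0.0114), and in the other 7 the adjusted p lay between 0.0515 and 0.156 while the log2 fold change stayed between −1.39 and −1.19.

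In PT-D compared to PT-ND the log2 fold change of Osr2 was −0.40 ± 0.32 (SE; adjusted p = 0.452), and the interaction was 0.86 ± 0.37 (adjusted p = 0.159). In PT-ND compared to T-ND it was −0.65 ± 0.18 (adjusted p = 0.278). The summed normalized counts of the thick ascending limb markers did not overlap between the same groups. They were 75890 to 98590 in T-ND and 39060 to 68400 in T-D. Of the 7 markers, 6 had a negative log2 fold change, against 51.6% of all genes, and 4 an unadjusted p under 0.05, against 11.8%. None of the markers was a DEG by edgeR, and none was at 0 in any library. Their part in the Osr2 values was not tested.

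Prox1 (chr1:189850232-189904637, minus strand), a homeobox factor of lymphatic endothelium and of the developing loop of Henle, shares 976 exonic bases with its antisense gene Prox1os. By library, the normalized counts were 156, 243, 71.2 and 84.7 in T-ND, 55.8, 43.2, 36.8 and 45.6 in T-D, 46.2, 75.8 and 69.3 in PT-ND and 88.0, 38.5 and 23.6 in PT-D. All T-D libraries were below all T-ND libraries, and T-ND replicates 1 and 2 were far above the other 2. The log2 fold change of T-D compared to T-ND was −1.63 ± 0.38 (SE; adjusted p = 0.156, edgeR). DESeq2 called it a DEG. The log2 ratio was −1.83 among the libraries with the suffix and −0.89 among those without. The 7 lymphatic markers summed to 850 to 1205 normalized counts in T-ND, 650 to 974 in T-D, 856 to 988 in PT-ND and 1576 to 1764 in PT-D. Flt4, Itga9 and Pdpn were the most abundant of them. In T-D compared to T-ND, 4 of the 7 had a negative log2 fold change, against 51.6% of all genes. The part of these markers in the Prox1 values was not tested.

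Pax8 (chr2:24309418-24365617, minus strand), a paired box factor, shares 680 exonic bases with the noncoding gene Gm13415. In normalized counts, the libraries stood at 1153, 1191, 1555 and 1407 in T-ND, 2022, 2203, 2031 and 2248 in T-D, 1821, 1749 and 1340 in PT-ND and 1527, 1436 and 1333 in PT-D. T-D stood above all 10 other libraries. The STZ effect on Pax8 differed between birth groups, with an interaction of −0.87 (SE 0.20, adjusted p = 0.0301, edgeR), short of the log2 fold change of 1 that a DEG requires. The log2 fold change was 0.66 ± 0.14 in T-D compared to T-ND (adjusted p = 0.122), −0.19 ± 0.16 in PT-D compared to PT-ND (adjusted p = 0.458) and −0.57 ± 0.15 in PT-D compared to T-D (adjusted p = 0.0884).

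The T-D excess of Pax8 was present with the suffix (log2 ratio to T-ND of 0.79) and without it (0.54). The PT-D to PT-ND ratio was −0.20 and −0.19. The interaction passed the adjusted threshold in 10 of 14 fits that left out a library. It missed it without T-ND replicate 1 (adjusted p = 0.0537), PT-ND replicate 2 (0.0681), PT-D replicate 2 (0.0612) or PT-D replicate 3 (0.0946).

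Pax2 (chr19:44735057-44826703, plus strand), the other paired box factor, shares no exonic base with another gene. Its normalized counts were 379, 404, 559 and 409 in T-ND, 462, 316, 329 and 78.6 in T-D, 286, 339 and 186 in PT-ND and 531, 324 and 425 in PT-D. PT-ND was below T-ND in every library, and T-D replicate 4 stood far below all other libraries. That library also had a count for the fewest genes, 19589. The log2 fold change was −0.70 ± 0.22 in PT-ND compared to T-ND (SE; adjusted p = 0.356) and 0.66 ± 0.25 in PT-D compared to PT-ND (adjusted p = 0.105). The interaction of 1.22 ± 0.54 did not pass either (adjusted p = 0.179).

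Cited1 (chrX:101290985-101295803, minus strand), which binds transcription factors but not DNA, overlapped no other gene. The normalized counts of the libraries were 171, 72.9, 55.7 and 87.9 in T-ND, 41.3, 33.6, 8.26 and 67.2 in T-D, 14.4, 72.4 and 29.6 in PT-ND and 4.49, 9.63 and 18.1 in PT-D. PT-D was below all T-ND libraries and overlapped T-D and PT-ND at their lowest libraries. The log2 fold change was −1.83 ± 0.68 in PT-D compared to PT-ND (SE; adjusted p = 0.102), −1.78 ± 0.68 in PT-D compared to T-D (adjusted p = 0.157), −1.40 ± 0.53 in T-D compared to T-ND (adjusted p = 0.347) and −1.32 ± 0.54 in PT-ND compared to T-ND (adjusted p = 0.440). All 4 were past 2 SE and none passed after adjustment in edgeR. The PT-D to PT-ND difference did pass in DESeq2 (adjusted p = 0.0392), in edgeR with no filter on low counts (0.0242) and without PT-ND replicate 1 (0.0402), and the adjusted p of the other alternatives and omissions reached 0.434. The PT-D to PT-ND log2 ratio was −3.87 with the suffix, 1 library of each, and −0.64 without it, 2 of each. The 7 inner medulla and thin limb markers with a match summed to 10660 to 16190 normalized counts in T-ND, 4568 to 11410 in T-D, 6296 to 14900 in PT-ND and 5837 to 8329 in PT-D, and none was at 0. Their part in the Cited1 values was not tested.

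Id2 (chr12:25143798-25147282, minus strand) had the smallest adjusted p of the members in the comparisons tested. It shares 466 exonic bases with Gm36287 and 796 with Gm59395, both noncoding and on the other strand. By library, the normalized counts were 7550, 7420, 5080 and 7985 in T-ND and 3229, 4202, 2894 and 5249 in T-D. They were 4990, 5480 and 8652 in PT-ND and 3354, 2011 and 2283 in PT-D. All PT-D libraries were below all PT-ND and T-ND libraries, and T-D overlapped T-ND through 1 library of each.

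Id2 fell by 1.32 on the log2 scale in PT-D compared to PT-ND (SE 0.25, adjusted p = 0.00974, edgeR) and by 1.05 for STZ in the additive fit (SE 0.19, adjusted p = 0.0178). The first call held in 6 of 6 fits that left out a library. In the additive fit the adjusted p stayed under 0.05 in 14 of 14, and the log2 fold change came within 1 without PT-ND replicate 3 (−0.92) or PT-D replicate 2 (−0.97). The PT-D to PT-ND log2 ratio was −0.71 among libraries with the suffix, 1 of each group, and −1.67 among the others. In T-D compared to T-ND the log2 fold change was −0.87 ± 0.21 (adjusted p = 0.163), and the interaction was −0.47 ± 0.35 (adjusted p = 0.440).

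The stretch of 250 bases before the start of transcription is shown for Wnt9b and Id2, the members that fell in PT-D compared to PT-ND, and for Pax8, whose STZ effect differed between birth groups. Sequences are from RefSeq (GRCm38.p6, a different build from the gene positions above) and are written 5′ to 3′ on the gene's own strand, which is minus for all 3. The regions are chr11:103749822-103750071, chr12:25096093-25096342 and chr2:24475600-24475849. Capitals mark the E-box CANNTG, the site of E proteins, which Id proteins hold off DNA; the motif reads the same on both strands.
Wnt9b: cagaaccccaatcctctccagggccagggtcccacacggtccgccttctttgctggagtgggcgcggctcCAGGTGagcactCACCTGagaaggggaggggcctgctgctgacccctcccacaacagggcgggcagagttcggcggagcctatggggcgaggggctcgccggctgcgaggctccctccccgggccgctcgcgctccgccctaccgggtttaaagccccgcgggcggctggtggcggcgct
Id2: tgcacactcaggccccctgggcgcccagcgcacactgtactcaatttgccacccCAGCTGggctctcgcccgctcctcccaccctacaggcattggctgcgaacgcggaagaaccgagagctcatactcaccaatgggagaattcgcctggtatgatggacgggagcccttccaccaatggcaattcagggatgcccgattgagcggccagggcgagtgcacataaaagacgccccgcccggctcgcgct
Pax8: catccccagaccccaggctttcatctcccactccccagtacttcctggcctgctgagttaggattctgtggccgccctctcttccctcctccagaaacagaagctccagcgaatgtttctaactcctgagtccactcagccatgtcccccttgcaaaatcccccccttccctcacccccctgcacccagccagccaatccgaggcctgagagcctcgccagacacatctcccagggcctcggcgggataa

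Wnt9b had 2 E-boxes, 180 and 168 bases before the start, and Id2 had 1 at 196 bases. Pax8 had none in this stretch. Of 32851 mouse promoters searched in the same window, 66.2% held at least 1, so that an E-box is common. The TCF/LEF motif CTTTGAT, the site of the nuclear partners of beta-catenin in Wnt signalling, was searched on both strands and was in none of the 3 and in 3.21% of all promoters. The CCAAT box occurred 3 times before Id2, once before Wnt9b and once before Pax8, and in 33.8% of promoters. The GC content was 72.0% for Wnt9b, 62.8% for Id2 and 60.4% for Pax8, against a median of 52.4%. Entries were found for 7 of the 10 members, Wnt7b, Shh and Osr2 being those without one.

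The other Id genes were compared with Id2. Their list of Id and E proteins, like the lists below, was chosen with earlier results of these data known. Id1, Id3 and Id4 were DEGs in PT-D compared to PT-ND and all were lower. They were 3 of the 6 genes on the list, against 1.99% of all genes that were DEGs and lower. Of these, Id4 fell by 1.89 on the log2 scale (SE 0.26, adjusted p = 0.00383). It averaged 911 ± 135 normalized counts (SD, n = 3) in PT-ND and 245 ± 94.9 (SD, n = 3) in PT-D. Id1 fell by 1.45 (SE 0.31, adjusted p = 0.0155) and Id3 by 1.14 (SE 0.30, adjusted p = 0.0321). The E proteins Tcf3, Tcf4 and Tcf12, with which Id proteins pair, were not DEGs in any comparison. The list had a median log2 fold change of −0.63, against 0.05 over all genes. In T-D compared to T-ND no gene of the list was a DEG by edgeR, 1 had an unadjusted p under 0.05, and that gene, Id4, had a log2 fold change of −0.80 ± 0.28 (adjusted p = 0.326). The interaction was −1.11 ± 0.44 for Id4 (adjusted p = 0.131) and −1.16 ± 0.38 for Id1 (adjusted p = 0.0762).

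Genes that Wnt signalling turns on as feedback were next. Of 14 Wnt targets and antagonists, 2 were DEGs in PT-D compared to PT-ND, both lower, against 1.99% of all genes. Sp5, a zinc finger factor induced by beta-catenin, fell by 1.61 on the log2 scale (SE 0.22, adjusted p = 0.00329), from 250 ± 29.9 to 81.6 ± 2.55 normalized counts (SD, n = 3 each). Notum, an enzyme that inactivates Wnt ligands, fell by 1.99 (SE 0.33, adjusted p = 0.00672), from 267 ± 41.1 to 66.9 ± 33.3 normalized counts. Axin2, a common readout of Wnt signalling, averaged 10.3 ± 7.13 in PT-ND and 19.5 ± 9.08 in PT-D (0.91 ± 0.65 on the log2 scale, adjusted p = 0.387). The list's median was −0.14, against 0.05 over all genes.

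**Figure D3:**
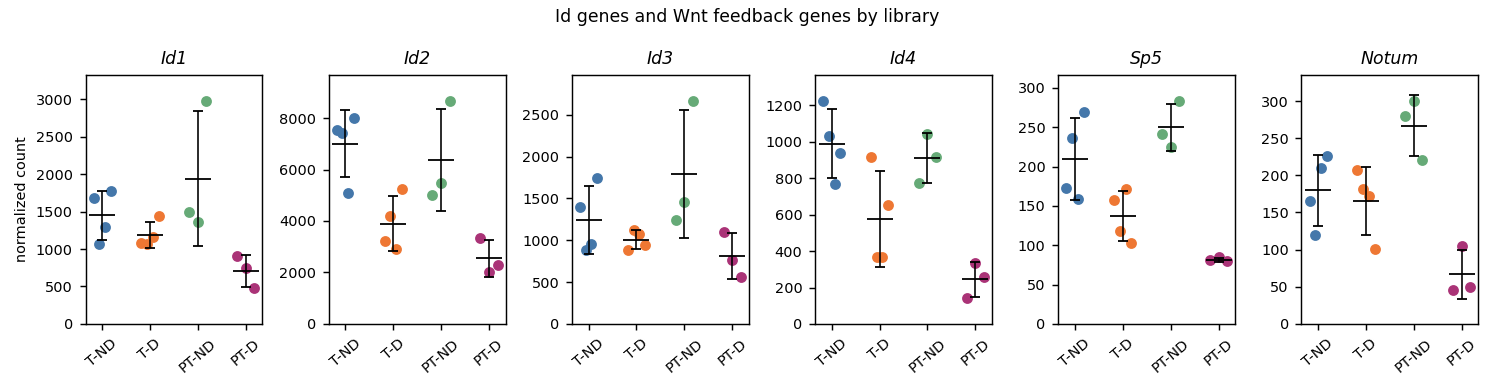
Normalized counts (vertical axis, linear from 0) of the 4 Id genes and of the Wnt feedback genes Sp5 and Notum in each library, by group, with the mean and SD as bars. The 3 PT-D libraries of Id4 lie between 144 and 332, and those of Sp5 between 79.6 and 84.5, below every other library of the same gene.

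For the interaction, 3 genes of the Wnt lists were DEGs. Fzd7, a Wnt receptor, had an interaction of 1.65 (SE 0.23, adjusted p = 0.00541) and averaged 353 ± 36.6 normalized counts in T-ND, 204 ± 38.1 in T-D, 214 ± 4.79 in PT-ND and 388 ± 27.7 in PT-D. Wnt9a, a ligand related to Wnt9b, had an interaction of 1.78 (SE 0.47, adjusted p = 0.0413). Of 19 Wnt receptors and secretion genes tested, 1 was a DEG for the interaction, and of 12 other Wnt ligands tested, 1, against 4.45% of all genes. Notum, a secreted Wnt antagonist of the list of Wnt targets and antagonists, had an interaction of −1.87 (SE 0.45, adjusted p = 0.0317).

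The Hedgehog pathway, through which Shh acts, was examined with 15 genes. Of these, 2 were DEGs for the interaction, both positive, against 4.45% of all genes in either direction. Ptch1, the Shh receptor and itself a target of the pathway, had an interaction of 1.07 (SE 0.30, adjusted p = 0.0466) with means of 575 ± 49.8 in T-ND, 406 ± 107 in T-D, 444 ± 50.0 in PT-ND and 658 ± 177 in PT-D. Boc, a co-receptor, had one of 1.85 (SE 0.43, adjusted p = 0.0289), and it rose by 1.24 in PT-D compared to PT-ND (SE 0.28, adjusted p = 0.0188). Gli1, a target often used as a readout, was scarce, at 11.48 ± 5.54 in T-ND and 10.3 ± 6.96 in PT-D on the normalized scale, and was no DEG in any comparison. Of the 15 genes, 10 had a negative log2 fold change in PT-D compared to PT-ND, against 47.5% of all genes. Smo, the most abundant gene of the list, averaged 1240 ± 129 normalized counts in PT-ND and 723 ± 60.8 in PT-D. PT-D, the group with the lowest mean of Shh, had the highest mean of Ptch1 and the lowest of Smo.

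Lists of genes from the stages of kidney development were described in the same way. Of 12 ureteric bud and branching genes, 11 had a negative log2 fold change in T-D compared to T-ND, with a median of −0.66, no DEG by edgeR and 5 at an unadjusted p under 0.05. Of all genes, 51.6% were negative there and 11.8% had such a p. Emx2, a homeobox gene of the bud, had an interaction of 1.09 (SE 0.29, adjusted p = 0.0407). Of 13 nephron differentiation genes, Jag1, a Notch ligand, and Tfap2b, a factor of distal nephron identity, had interactions of 1.23 (SE 0.27, adjusted p = 0.0252) and 1.18 (SE 0.33, adjusted p = 0.0472). Of 10 kidney stroma genes, Rarb, a retinoic acid receptor, had one of 1.87 (SE 0.54, adjusted p = 0.0497). Of the nephron progenitor genes, 12 had enough counts in most comparisons, and none was a DEG in any by edgeR, with 0 to 3 at an unadjusted p under 0.05.

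The regulators were compared with one another over the 14 libraries. The pairs share libraries, groups and depth, so that the correlations of log2 CPM are a description. Wnt9b and Cited1 were the most alike (r = 0.84), followed by Wnt7b and Cited1 (0.80) and by Osr2 and Prox1 (0.80). Id2 correlated with Wnt9b at 0.78 and with Osr2 at 0.75. Pax8 was negatively correlated with each of the other 9, most with Osr2 (−0.61). Pax2 and Wnt4 had no correlation above 0.55 with any member.

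**Figure D4:**
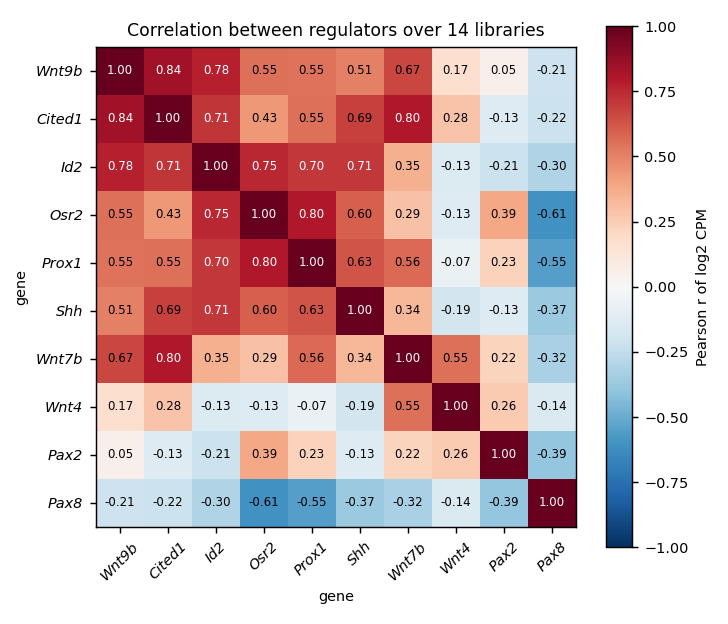
Pearson correlation of log2 CPM between each pair of the 10 regulators over the 14 libraries, from −1 (blue) to 1 (red). Wnt9b, Cited1, Id2, Osr2, Prox1 and Shh form a block of positive values between 0.43 and 0.84, and the row of Pax8 is negative throughout.

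Out of 12119 other genes that averaged 50 or more normalized counts (12120 for Cited1 and Shh), those nearest to each regulator were named as a description over the same 14 libraries. Cited1 was nearest to Cryab (r = 0.97), a small heat shock protein and one of the inner medulla markers. Wnt7b was nearest to Epor (0.91), the erythropoietin receptor, and next to Slc6a12 (0.89), the betaine transporter of the inner medulla. Prox1 was nearest to Bsnd (0.91), the chloride channel subunit of the thick ascending limb and later segments. Wnt9b was nearest to Fam20c (0.92), a kinase of the secretory pathway, Osr2 to Cxxc5 (0.90), Id2 to Phlda2 (0.91) and Shh to Prxl2c (0.87).

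Pax8 was nearest to Bmp7 (0.87), a growth factor needed by nephron progenitors, Wnt4 to Rasal1 (0.88) and Pax2 to Ctcf (0.96), a chromatin architecture protein. Cryab itself was 3860 ± 875 normalized counts in T-ND (SD, n = 4) and 1309 ± 580 in PT-D (SD, n = 3). Bmp7 was 903 ± 90.3 in T-ND, 1240 ± 70.2 in T-D, 1005 ± 54.5 in PT-ND and 943 ± 70.5 in PT-D, the same order of T-D above the other groups as in Pax8.

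The marker genes of the tubule segments were summed beside the regulators. The thick ascending limb sum was 60480 to 78890 in PT-ND and 30470 to 66520 in PT-D, and all 7 markers had a negative log2 fold change there, Cldn10 as a DEG (−1.55 ± 0.18, adjusted p = 0.00214). The podocyte sum went the other way, with 5704 to 9675 in PT-ND and 10430 to 13820 in PT-D, and all 6 markers were positive, 2 of them DEGs, against 2.96% of all genes that were DEGs and higher. These are sums of RNA, and by histology the paper found a lower podocyte density in PT-D than in PT-ND. Proximal tubule markers were mixed, with 7 of 10 negative, no DEG by edgeR and 3 at an unadjusted p under 0.05, against 47.5% of all genes that were negative and 29.1% with such a p. Whether the regulators would differ at an equal share of these cells was not tested.

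**Figure D5:**
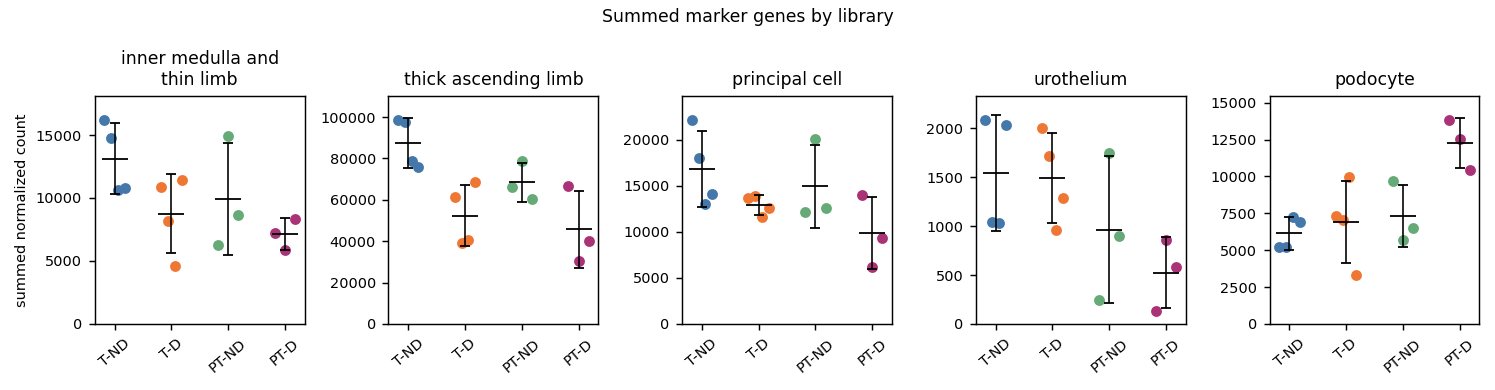
Summed normalized counts (vertical axis, linear from 0) of the markers of 5 kidney cell types in each library, by group, with the mean and SD as bars. The 3 PT-D libraries have the 3 highest podocyte sums, 10430 to 13820, and inner medulla and thin limb sums of 5837 to 8329, below all 4 T-ND libraries.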

How the data were processed

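Whole-kidney RNA of 14 female mice was analysed in 4 groups, taken with the replicate numbers from the sample labels. The authors trimmed the reads, aligned them with STAR to GRCm39 and deposited the raw counts that STAR makes for each gene, in 1 unstranded and 2 stranded columns. The unstranded column was used. Reads on more than 1 gene, 6.86% to 8.09% of uniquely mapped reads, are in no gene's count. Of 56980 gene identifiers, 56236 matched GENCODE M39 without the version number. Positions and lengths are from that release. Litter mates of STZ-treated mice were the study's T-ND controls, so that litters can span the groups compared. Which mice shared a litter is not stated, litter was in no fit, and p-values measure the spread between these mice.

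A gene needed a total above 10 counts over the 14 libraries, which 22339 genes had. Pairs of groups were fitted on their own libraries, and the interaction and the additive effects on all 14, with edgeR 4.0.16 (R 4.3.3). Libraries were scaled by TMM, tests were quasi-likelihood tests, and p-values were adjusted by Benjamini-Hochberg over all genes tested. Tests were two-sided. DEGs had an adjusted p below 0.05 together with a log2 fold change beyond 1 in either direction. Log2 CPM used a prior count of 2. Differences among genes in level were read per kilobase of merged exons.

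The 10 members and the gene lists were chosen with earlier results of these data known. Named genes are the members, the genes of the lists that were DEGs in a comparison and averaged 50 or more normalized counts, 11 readout genes picked by name, the most abundant of each list and the nearest 3 genes by correlation. Cell type marker lists were written by hand, and 1 marker, Akr1b3, had no match.

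Tested on simulated data with 200 changed genes, the scripts recovered 87.5% to 90.5% of them in the pairs, 70% in the interaction and 96% to 97% in the additive fits. They also called 2 to 13 unchanged genes per comparison. The changed genes were not scarce and were given a larger fold change than most members had, so that recovery of smaller effects was not tested. As alternatives, DESeq2 1.42.0, scaling by RLE or by the upper quartile, filterByExpr, no filter on counts, the library-name suffix as a term, a replicate block, all libraries in a joint fit, the adjusted p alone and each library left out in turn were tried.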

Additional observations from a re-analysis of the deposited data

Results flagged for a closer look

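Pax2 in T-ND replicate 3, at 559 normalized counts, stood apart from the other 3 T-ND libraries (379 to 409). Of 20 sets tested, the 10 members in each of the 2 groups of 4 libraries, this was the 1 in which a library stood apart, and chance gives about 1 in 20.

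For Pax8 and for 7 DEGs among the related genes that averaged 50 or more normalized counts, the STZ effect differed between preterm and term mice by the interaction test in edgeR. They are Pax8 (−0.87) among the regulators, and Emx2 (1.09), Jag1 (1.23), Tfap2b (1.18), Fzd7 (1.65), Notum (−1.87), Ptch1 (1.07) and Boc (1.85) among the related genes, all as log2 values. The adjusted p was 0.0301 for Pax8, and the 7 others lay between 0.00541 for Fzd7 and 0.0472 for Tfap2b. In 6 of the 8 the mean was lower in T-D than in T-ND and higher in PT-D than in PT-ND, and Pax8 and Notum were the exceptions. Wnt9a (1.78) and Rarb (1.87), with lower counts, were also DEGs for the interaction, and Fzd4 (0.72) passed the adjusted p alone. In all, 9 of 115 related genes tested were DEGs for it (7.83%, against 4.45% of all genes) and 10 passed the adjusted p (8.7%, against 6.23%).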

How the results depend on the processing

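Every member kept its direction under RLE and upper quartile normalization, both filters and DESeq2. DEG counts among the members moved by tool. DESeq2 called 7 in PT-D compared to T-ND, 1 (Wnt9b) in PT-D compared to T-D, 2 (Osr2 and Prox1) in T-D compared to T-ND, 3 (Wnt9b, Id2 and Cited1) in PT-D compared to PT-ND and 5 for STZ in the additive fit, where no filter gave 3. No filter also gave 3 in PT-D compared to PT-ND, the same genes as DESeq2. The suffix term and the replicate block each left 0 in T-D compared to T-ND, and the block left 1 in PT-D compared to T-ND. The adjusted p alone gave 1 for the interaction, Pax8. With a library left out, the counts ranged from 0 to 6 in PT-D compared to T-ND, 0 to 2 in T-D compared to T-ND, 1 to 3 in PT-D compared to PT-ND and 0 to 2 for STZ. Prox1 joined Osr2 without T-ND replicate 3, and for STZ Wnt9b was added without T-ND replicate 3 or T-D replicate 1 and Osr2 without PT-D replicate 1.

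Directions turned in log2 fold changes that edgeR did not call. The suffix term gave −0.10 for Prox1 in PT-D compared to T-D and 0.015 for Wnt7b in PT-D compared to PT-ND. The replicate block gave 0.0096 for Shh and −0.037 for Prox1 in PT-D compared to T-D, −0.20 for Wnt4 in T-D compared to T-ND and −0.0026 for Wnt4 in the preterm effect. The cause was not tested. With a library left out, PT-D compared to T-D ranged from −0.027 to 0.89 for Wnt4, −0.26 to 0.47 for Osr2 and −0.55 to 0.49 for Prox1. Wnt4 ranged from −0.53 to 0.37 in T-D compared to T-ND and −0.86 to 0.20 in PT-ND compared to T-ND, and Wnt9b from −0.80 to 0.040 in the latter. Wnt7b ranged from −0.56 to 0.62 in PT-D compared to PT-ND. The interaction ranged from −0.18 to 0.66 for Shh and −1.01 to 0.37 for Cited1. The additive STZ effect ranged from −0.19 to 0.18 for Pax2 and −0.018 to 0.50 for Wnt4, and the preterm effect from −0.27 to 0.10 and −0.19 to 0.34.

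Libraries with the same replicate number did not deviate together (r from −0.12 to 0.13, median −0.05, in 19 pairs), so that the block was not used. Pax8 missed the adjusted threshold for the interaction under the block (adjusted p = 0.0554), and Osr2 in T-D compared to T-ND did so under it (0.0708) and under the suffix term (0.0537). Wnt9b and Id2 in PT-D compared to PT-ND stayed DEGs under all 8 alternatives that kept every library. Counts as low as 5 limit Cited1 and Shh.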

Other observations

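Irx1, a homeobox gene of the developing intermediate nephron, had an adjusted p under 0.05 in 3 of the comparisons. Its log2 fold change was −0.87 ± 0.17 for STZ in the additive fit (SE; adjusted p = 0.0275, edgeR), −0.86 ± 0.22 in PT-D compared to PT-ND (adjusted p = 0.0291) and −1.35 ± 0.22 in PT-D compared to T-ND (adjusted p = 0.0235). Its normalized counts were 749 to 1214 in T-ND, 400 to 697 in T-D, 512 to 763 in PT-ND and 309 to 484 in PT-D.

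Flt4, the receptor of lymphatic growth factors, rose by 1.68 on the log2 scale in PT-D compared to PT-ND (SE 0.21, adjusted p = 0.00249, edgeR) and had an interaction of 1.94 (SE 0.39, adjusted p = 0.0218). Prox1, which specifies lymphatic endothelium, had a log2 fold change of −0.35 ± 0.47 in the same pair (adjusted p = 0.672). Wt1, a factor of nephron progenitors that podocytes keep, averaged 384 ± 39.9 normalized counts in PT-D (SD, n = 3) and 167 ± 46.9 in T-ND (SD, n = 4). Its log2 fold change between them was 1.19 ± 0.22 (SE; adjusted p = 0.0302, edgeR).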
